A study of Mus musculus with 10 samples.

Results

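A set of 10 genes, Tcf24, Garem1, Homer2, Arhgap24, Itm2a, Chl1, Exph5, Fbn2, Prg4 and Stc2, was described in thymic invariant natural killer T (iNKT) cells that lacked Id3. They were chosen from these same arrays as the largest increases in Id3KO cells from low WT values, among 18193 genes with a probe set of their own. The Id3KO minus WT difference is therefore what selected them. It is given below as a description, without a test. The array represents them by 21 probe sets, and every one is accounted for. The study hybridised RNA from sorted thymocytes of 6-week-old C57BL/6 mice to Affymetrix arrays, with an amplification of the RNA before labelling. The groups were Id3KO stage 1 (2 arrays), WT stage 1 (2 arrays), Id3KO stage 2 (3 arrays) and WT stage 2 (3 arrays). All cells were tetramer-positive, CD24-negative and NK1.1-negative, and CD44 divided them into stage 1 (CD44-) and stage 2 (CD44+). The arrays of a group are labelled biological replicates, so p-values measure the spread between such samples. The labels name neither the Id3 allele nor whether cells of several mice were pooled.

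Id3 is a helix-loop-helix protein without a DNA-binding region. It pairs with E proteins, the basic helix-loop-helix factors encoded by Tcf3, Tcf4 and Tcf12, and keeps them from binding the E-box, a short DNA motif written CANNTG. E proteins direct many genes of developing T cells, and iNKT cells are a T cell lineage that recognises lipids on CD1d and depends on the factor PLZF (Zbtb16). The genes described here fall into several roles: a transcription factor, scaffolds and regulators of signalling, membrane proteins, and proteins of the extracellular matrix or secreted fluid.

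Values are RMA-normalised intensities as the authors deposited them. No detection calls were used here, so the median of the whole table, an intensity of 55.1, served as the level below which a probe set was called low. A probe set was tested if it lay above that level on at least 2 of the 10 arrays, which kept 25061 of 45037. A call is a limma p under 0.05 after adjustment over all tested probe sets. Median intensity per array ranged from 54.8 to 55.5. Id3 itself (probe set 1416630_at) averaged 64.4 ± 1.45 in Id3KO and 1285 ± 4.79 in WT cells at stage 1 (SD, n = 2 each). At stage 2 it averaged 63.7 ± 8.37 in Id3KO and 904.7 ± 139 in WT cells (SD, n = 3 each), so every array matched its genotype label. Of the iNKT identity markers, 7 of 8 were in the table, all 7 were kept, and none was called in either genotype contrast. Of all tested genes, 0.594% were called higher and 0.460% lower at stage 1, and 2.36% and 3.22% at stage 2. The summed intensity of the 7 markers at stage 1 was 15366 to 15828 in Id3KO and 16493 to 16674 in WT cells. At stage 2 it was 13196 to 15375 in Id3KO and 15541 to 17277 in WT cells. The sums were lower in Id3KO cells at both stages, but the genes did not all run that way. Icos, the brightest of them, averaged 5097 in Id3KO and 6196 in WT cells at stage 1, and 4717 in Id3KO and 6525 in WT cells at stage 2. Cd247, Cd3e and Cd3g were also lower in Id3KO cells at both stages. Cd3d and Cd5 were higher at both, and Zbtb16 was lower at stage 1 and higher at stage 2.

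RefSeq promoter windows of GRCm38.p6, from 250 bases before to 50 bases after the start, were read for 5 of the 10 genes. These were Homer2 (2 windows), Stc2, Itm2a, Exph5 and Chl1. The 4 windows that hold an E-box are shown because the E-box is the motif of the factors that Id3 restrains. E-boxes are in capitals, positions count from the start, and CANNTG reads the same on both strands. The first is the second Homer2 promoter, at chr7:81692916-81693215 on the minus strand. Stc2 lies at chr11:31370012-31370311 (minus strand), Itm2a at chrX:107403311-107403610 (minus strand) and Exph5 at chr9:53301420-53301719 (plus strand).
Homer2, second promoter: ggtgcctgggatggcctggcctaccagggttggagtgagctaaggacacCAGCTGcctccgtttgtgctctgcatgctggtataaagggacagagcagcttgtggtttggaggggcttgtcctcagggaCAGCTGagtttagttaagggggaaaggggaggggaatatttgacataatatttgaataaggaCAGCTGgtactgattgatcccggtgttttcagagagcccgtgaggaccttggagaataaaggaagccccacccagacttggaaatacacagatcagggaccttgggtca
Stc2: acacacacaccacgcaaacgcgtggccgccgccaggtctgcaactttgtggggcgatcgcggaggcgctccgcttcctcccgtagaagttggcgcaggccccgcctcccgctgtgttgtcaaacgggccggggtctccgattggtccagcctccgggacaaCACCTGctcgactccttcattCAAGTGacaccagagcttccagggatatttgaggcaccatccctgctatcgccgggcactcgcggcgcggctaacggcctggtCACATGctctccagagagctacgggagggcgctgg
Itm2a: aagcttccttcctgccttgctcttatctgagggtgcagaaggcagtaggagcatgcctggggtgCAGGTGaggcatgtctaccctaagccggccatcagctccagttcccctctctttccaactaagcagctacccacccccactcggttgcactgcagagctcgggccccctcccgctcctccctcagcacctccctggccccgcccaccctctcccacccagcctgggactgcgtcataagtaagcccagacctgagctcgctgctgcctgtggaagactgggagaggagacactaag
Exph5: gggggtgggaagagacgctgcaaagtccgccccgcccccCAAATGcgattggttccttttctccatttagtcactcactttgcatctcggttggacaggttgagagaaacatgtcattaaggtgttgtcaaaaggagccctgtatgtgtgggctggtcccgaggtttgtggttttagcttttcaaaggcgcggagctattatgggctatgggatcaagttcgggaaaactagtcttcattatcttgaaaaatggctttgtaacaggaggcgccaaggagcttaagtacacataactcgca

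The second Homer2 window holds 3 copies of CAGCTG, at -201, -121 and -59. Stc2 holds CACCTG at -89, CAAGTG at -68 and CACATG at 16. Itm2a holds CAGGTG at -186 and Exph5 holds CAAATG at -211. The Chl1 window and the first Homer2 window hold no CANNTG. Thus 4 of 6 windows carried an E-box, against 72.3% of all 32851 promoters of the same length. CAGCTG was in 1 of 6, against 16.3% of all promoters, and CACCTG or its reverse complement CAGGTG was in 2 of 6, against 20.2%. CATCTG or its reverse complement CAGATG was in 0 of 6, against 17.2% of all promoters. CATATG was in 0 of 6, against 3.91%, and CACGTG was in 0 of 6, against 7.15%. Windows with 3 or more CAGCTG were 68 of the 32851, or 0.207%; that count was made after the Homer2 window had been read. These are matches of letters in one short window per start.

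Tcf24, Garem1, Arhgap24, Fbn2 and Prg4 are named without a sequence. Tcf24, Arhgap24 and Prg4 had no window under their symbol, while Garem1 and Fbn2, on chromosome 18, were left out of the promoter reading. The 10 genes lie on 8 chromosomes, and none of them shares chromosome 4 with Id3 in RefSeq's GRCm38.p6 annotation.

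For each gene, the probe set with the highest mean over the 10 arrays is called its brightest. On all 10 brightest probe sets, every Id3KO array lay above every WT array over both stages, as did 15 of the 21 probe sets. Among all tested probe sets 3.10% did so. As the genes were picked for this difference, nothing is read from that contrast. The median Id3KO minus WT difference over the 10 was 1.96 on the log2 scale at stage 1 and 2.13 at stage 2, where the median over all tested probe sets was -0.01 and 0.01. The rule holds no size threshold, so no members just inside or outside it can be given. These are bulk samples, so more expression per cell and more cells of an expressing type cannot be told apart.

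**Figure D1:**
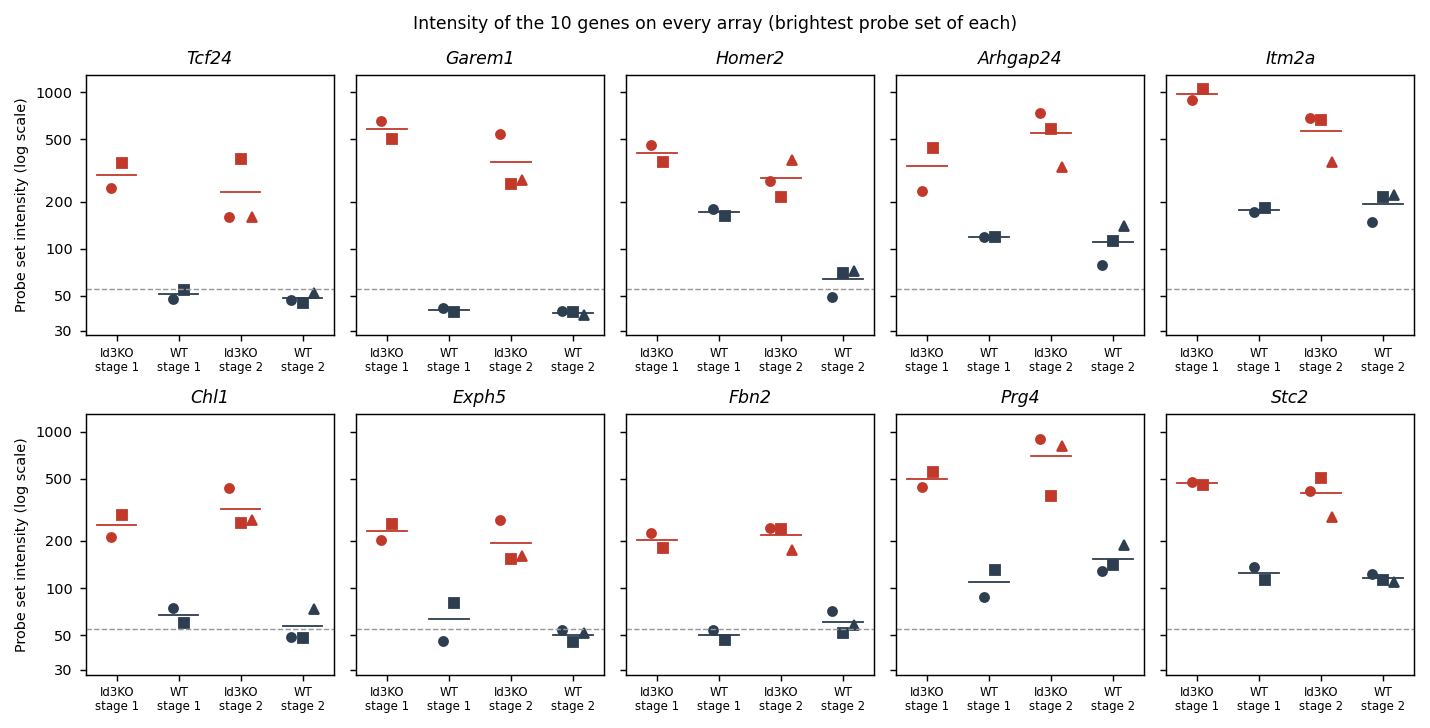
Intensity (log scale) of the brightest probe set of each of the 10 genes on every array, with Id3KO left of WT at each stage. Each point is 1 array, and the Id3KO points lie above the WT points in all 10 panels.

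Low WT values were not shared by all of the genes. Tcf24 and Garem1 were at or below the level of 55.1 on all 5 WT arrays. Arhgap24, Itm2a, Prg4 and Stc2 were above it on all 5 WT arrays. Homer2, Chl1, Exph5 and Fbn2 lay in between, above it on some WT arrays only. Homer2 was above it on both WT stage 1 arrays, at 180.1 and 163, and Chl1 was too, at 75.0 and 59.9. For Arhgap24, Itm2a, Prg4 and Stc2, and for Homer2 and Chl1 at stage 1, the description of a gain from background goes against the data. There "higher without Id3" is what the values show. Every Id3KO array was above the level for all 10. Of the 18 tested member probe sets, 5 (from 5 genes) had passed the filter through the Id3KO arrays alone, and 3 of these were brightest probe sets.

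Tcf24 encodes a basic helix-loop-helix transcription factor. Its only probe set (1439816_at) read 243 and 354 in Id3KO cells, against 48.1 and 54.5 in WT cells, at stage 1. At stage 2 it read 159, 373 and 159 in Id3KO cells, against 47.0, 45.2 and 52.4 in WT cells. All WT arrays sat at the low level, and 2 of the 3 Id3KO stage 2 arrays sat well under the third. With WT arrays set to that level, Tcf24 was at least 5.32-fold higher in Id3KO cells at stage 1 and at least 3.84-fold higher at stage 2.

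Garem1 encodes an adaptor that links growth factor receptors to Grb2 and the ERK pathway. It had the largest difference of the 10. Its probe set 1436827_at read 659.7 and 501 in Id3KO cells and 41.7 and 39.3 in WT cells at stage 1. At stage 2 the readings were 544, 259 and 274 in Id3KO cells and 39.8, 39.6 and 37.9 in WT cells. Its 5 WT values stayed within a narrow band, while the 5 Id3KO values spread from 259 to 659.7. Garem1 was at least 10.4-fold higher at stage 1 and at least 6.13-fold higher at stage 2. The other Garem1 probe set, 1456271_at, stayed between 37.8 and 49.1 on all 10 arrays, below the level on each, and was not tested.

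Homer2 encodes a scaffold protein that binds glutamate and inositol trisphosphate receptors and, in T cells, can bind NFAT. Its brightest probe set (1424367_a_at) read 463 and 357 in Id3KO cells and 180.1 and 163 in WT cells at stage 1. The stage 2 arrays gave 271, 214 and 372 in Id3KO cells and 49.3, 70.3 and 71.9 in WT cells. The genotypes did not overlap at either stage, and the WT values were lower at stage 2 than at stage 1. The log2 difference between genotypes was 1.25 ± 0.27 (SE) at stage 1 and 2.14 ± 0.22 at stage 2, folds of 2.38 and 4.42. The stage 2 size takes in the WT array at 49.3, below the level, and is not an exact value. Homer2 probe set 1457671_at had differences of 0.70 ± 0.36 and 1.16 ± 0.30, while 1436110_at lay between 50.3 and 66.2 on all arrays, with differences of 0.00 and 0.01. The probe sets of Homer2 therefore disagreed. The 3 CAGCTG copies shown above precede the second annotated start, and which start these probe sets read was not examined.

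Arhgap24 encodes a filamin-binding protein that switches off the GTPase Rac. Its brightest probe set (1424842_a_at) read 235 and 441 in Id3KO cells and 119.1 and 119.8 in WT cells at stage 1. In stage 2 cells the values were 739.7, 581 and 332 in Id3KO cells and 78.7, 113 and 139 in WT cells. The genotypes were apart at both stages, with folds of 2.69 and 4.87. The 2 Id3KO stage 1 arrays differed by 1.87-fold, and the stage 1 log2 difference of 1.43 ± 0.41 was 0.98 without Id3KO stage 1 replicate 2 and 1.88 without Id3KO stage 1 replicate 1. Arhgap24 probe set 1430712_at differed by 0.02 ± 0.13 at stage 1 and 0.41 ± 0.10 at stage 2 on the log2 scale.

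**Figure D2:**
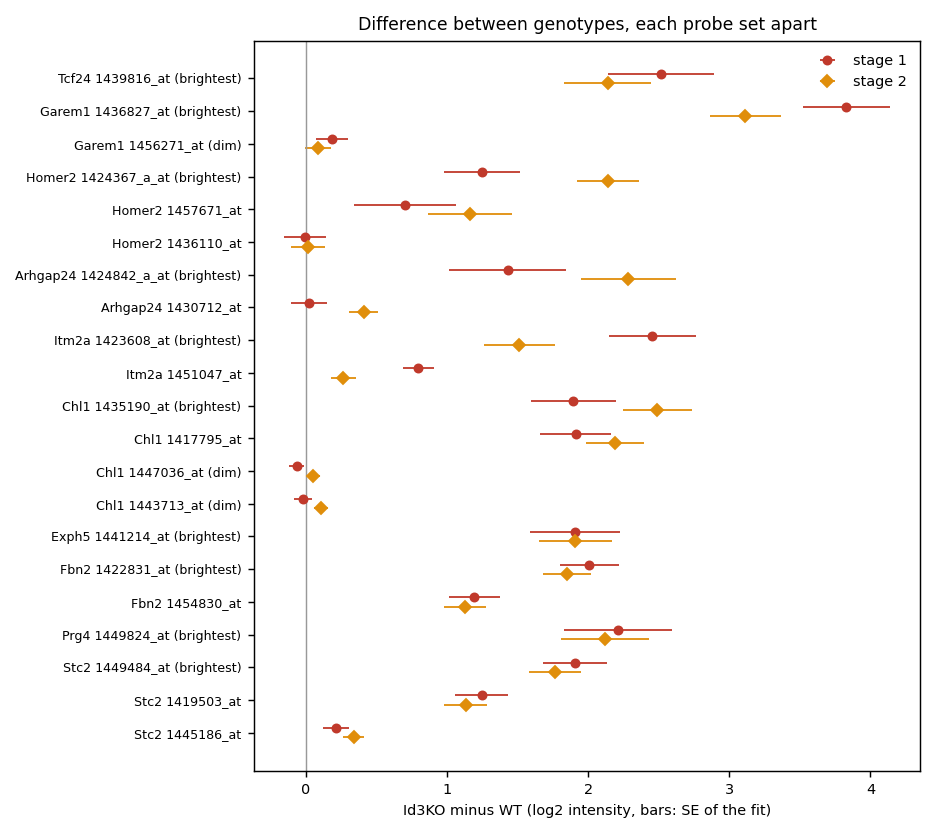
Id3KO minus WT difference (log2) of all 21 probe sets of the 10 genes at each stage, with the standard error of the fit as bars. The brightest probe sets lie between 1.25 and 3.83, while the lesser probe sets of Garem1, Homer2, Arhgap24 and Chl1 include values near 0.

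Itm2a encodes a membrane protein with a BRICHOS domain that thymocytes induce during positive selection. Itm2a read 898 and 1043 in Id3KO cells at stage 1, against 172 and 181 in WT cells (probe set 1423608_at). At stage 2 it read 688, 662 and 357 in Id3KO cells and 149, 213 and 221 in WT cells. The folds were 5.47 at stage 1 and 2.85 at stage 2. Itm2a's second probe set, 1451047_at, had differences of 0.80 ± 0.11 and 0.26 ± 0.09 (log2).

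Chl1 encodes a neural cell adhesion molecule of the L1 family. Its brightest probe set (1435190_at) read 211 and 294 in Id3KO cells and 75.0 and 59.9 in WT cells at stage 1. At stage 2 the readings were 436, 259 and 271 in Id3KO cells and 48.8, 48.1 and 73.6 in WT cells, with 1 of 3 WT arrays above the level. Chl1 probe set 1417795_at showed the pattern as well. Its WT values lay between 41.8 and 52.8, all below the level, and its Id3KO values between 154 and 259.8, so it was at least 3.49-fold higher at stage 1 and at least 3.52-fold higher at stage 2. The remaining pair, 1447036_at and 1443713_at, stayed below the level on all arrays and was not tested.

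Exph5 encodes an effector of Rab27, a GTPase of secretory vesicles. Its single probe set (1441214_at) read 203 and 258 in Id3KO cells and 46.2 and 80.8 in WT cells at stage 1. The stage 2 arrays gave 273, 154 and 159 in Id3KO cells and 53.8, 45.3 and 51.8 in WT cells. The WT stage 1 arrays differed from each other by 1.75-fold, so the stage 1 log2 difference of 1.91 ± 0.32 was 1.50 without WT stage 1 replicate 1 and 2.31 without WT stage 1 replicate 2. That 2.31 rests on 1 WT array below the level and is not an exact value. At stage 2, where all WT arrays were below the level, Exph5 was at least 3.42-fold higher in Id3KO cells.

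Among the secreted proteins, Fbn2 is a fibrillin of extracellular microfibrils. It read 225 and 179.9 in Id3KO cells and 54.0 and 46.3 in WT cells at stage 1 (probe set 1422831_at), at least a 3.65-fold difference. In stage 2 cells the values were 242, 239 and 175 in Id3KO cells and 71.5, 51.4 and 58.4 in WT cells. The second Fbn2 probe set (1454830_at) was low on all WT arrays and at least 1.82-fold higher at stage 1 and 1.68-fold higher at stage 2 in Id3KO cells. Both Fbn2 probe sets thus ran the same way.

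Prg4 encodes lubricin, the lubricating proteoglycan of joints. Its only probe set (1449824_at) read 445 and 551 in Id3KO cells and 88.0 and 129.6 in WT cells at stage 1. At stage 2 it read 897, 387 and 804 in Id3KO cells and 129.1, 141 and 188 in WT cells. WT cells were above the level throughout, and the folds were 4.64 and 4.34.

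Stc2 encodes stanniocalcin 2, a secreted glycoprotein that inhibits the protease PAPP-A. Its brightest probe set (1449484_at) read 479.7 and 453 in Id3KO cells and 136 and 113.3 in WT cells at stage 1. At stage 2 the readings were 419.7, 503 and 285 in Id3KO cells and 124, 112.9 and 109.1 in WT cells. The folds were 3.76 and 3.40. The second Stc2 probe set (1419503_at) differed by 1.25 ± 0.19 and 1.13 ± 0.15 on the log2 scale. The third (1445186_at) differed by 0.21 ± 0.09 and 0.34 ± 0.08, so the size of the Stc2 difference depended on the probe set.

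The difference between stages was not itself used to choose the genes, but it uses the same arrays. A gene that read high by chance in Id3KO cells at 1 stage was more likely to be chosen. The stage differences are therefore not independent of the choice. No member probe set was called between stage 2 and stage 1, with 0 of 18 in Id3KO cells and 0 of 18 in WT cells by limma. Of the 18, 5 had passed the filter through the Id3KO arrays alone. Their WT values lay almost all at or below the level, so a stage difference in WT cells could hardly appear in them. Over all 25061 probe sets there were 0 calls in Id3KO cells (0%), where the lowest adjusted p was 0.811, and 4 in WT cells (0.0160%). At an unadjusted limma p under 0.05 there were 4 of 18 member probe sets in Id3KO cells, where 4.51% of all probe sets passed, and 2 of 18 in WT cells, where 8.06% passed. The 4 included both Itm2a probe sets, and the 2 in WT cells were both of Homer2, so neither count is a count of genes. The median stage 2 minus stage 1 difference of the 10 brightest probe sets was -0.27 in Id3KO cells and -0.10 in WT cells (log2). Over all tested probe sets the median was -0.0024 in Id3KO and -0.0078 in WT cells. As fitted, the difference was negative for 6 of the 10 in Id3KO cells and 7 of 10 in WT cells. The share of negative differences over all probe sets was not counted. For Fbn2 in Id3KO cells the sign turned under at least 1 other setting. It also did for Tcf24, Garem1, Arhgap24, Exph5 and Stc2 in WT cells. In each genotype the stages overlapped for 9 of the 10.

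Homer2 was the gene apart in WT cells. Its WT stage 2 arrays all lay below its WT stage 1 arrays, a log2 difference of -1.44 ± 0.24 (SE, 3 arrays against 2) with a limma adjusted p of 0.133 and an unadjusted p of 0.00025. Over the alternative settings that adjusted p ranged from 0.0496 with array weights to 0.851. Homer2 probe set 1457671_at ran the same way, at -0.83 with an adjusted p of 0.572. In Id3KO cells the Homer2 stage difference was -0.55, and its stages overlapped. The gap between genotypes was larger at stage 2 by 0.89 ± 0.35, and no interaction was called among all probe sets. Both the -1.44 and the 0.89 take in the WT stage 2 array at 49.3, below the level, so neither is an exact value.

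Itm2a was the gene apart in Id3KO cells. Its 3 Id3KO stage 2 arrays all lay below the 2 stage 1 arrays, at -0.83 ± 0.28 with an unadjusted limma p of 0.017, and its second probe set gave -0.47 with an unadjusted p of 0.00114. In WT cells Itm2a's stages overlapped. Garem1 gave -0.77 in Id3KO cells with an unadjusted limma p of 0.0241, and Arhgap24 probe set 1430712_at gave 0.33 with an unadjusted p of 0.0173. None of these passed adjustment over all probe sets. Of all tested probe sets, 18.4% had stages apart in Id3KO cells and 26.2% in WT cells.

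**Figure D3:**
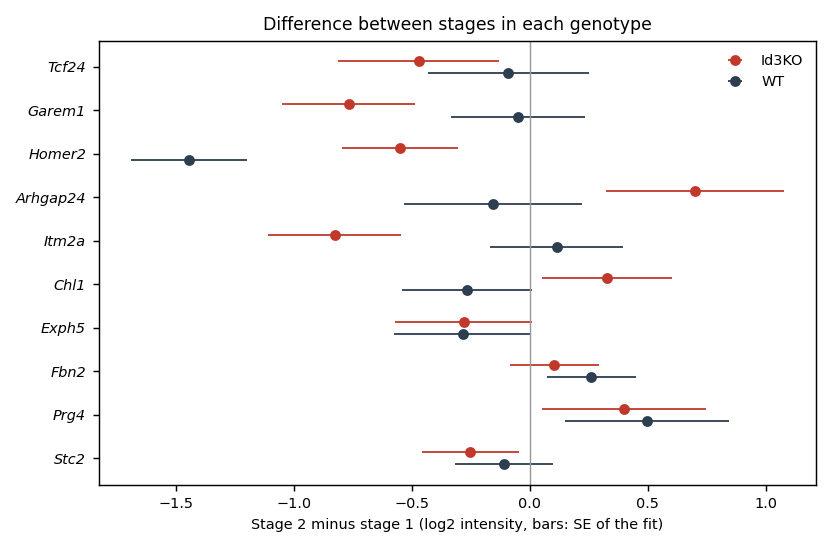
Stage 2 minus stage 1 difference (log2) of the brightest probe set of each gene in Id3KO and WT cells, with the standard error of the fit as bars. Homer2 in WT cells lies at -1.44, and the other differences lie between -0.83 and 0.70.

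Id3KO arrays of 1 group differed from each other for several of the genes, and not always in the same order. At stage 2 the highest Id3KO array exceeded the lowest by 2.34-fold for Tcf24, 2.32-fold for Prg4, 2.23-fold for Arhgap24 and 2.10-fold for Garem1, and by 1.38-fold for Fbn2. Replicate 1 of the Id3KO stage 2 group was the highest of the 3 for 7 of the 10 genes, where 31.4% of all tested probe sets had it highest. Replicate 1 was the lowest for none, but only just for Tcf24, at 159.33 against 159.3 in replicate 3. Its median deviation from the group mean was 0.40 on the log2 scale, against -0.06 for replicate 2 and -0.30 for replicate 3. Tcf24 departed from this order with its highest value in replicate 2, Stc2 with its highest in replicate 2, and Homer2 with its highest in replicate 3. The genes thus did not share 1 ranking of the arrays. In the WT stage 2 group, replicate 3 was highest for 6 of the 10 genes, where 31.1% of all tested probe sets had it highest. Replicate 2 of that group was highest for 0, against 28.5%. The genes were chosen on these same arrays for high Id3KO and low WT values. Each array therefore had a part in the choice, and these ranks are a description only.

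**Figure D4:**
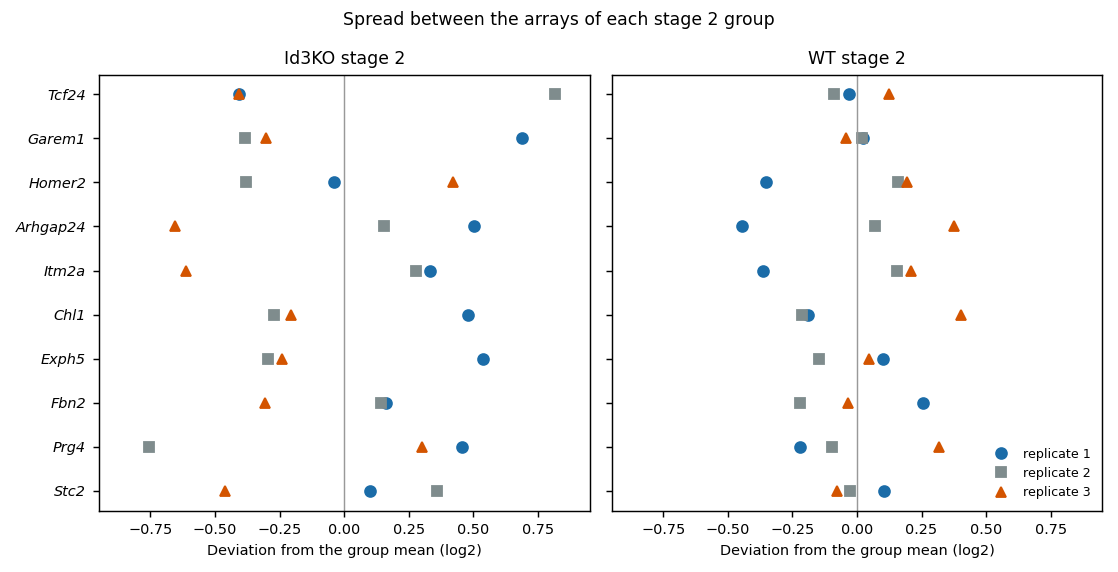
Deviation of each stage 2 array from its group mean (log2) for the brightest probe set of each gene, Id3KO on the left and WT on the right. Replicate 1 of Id3KO lies right of the mean for 8 of the 10 genes, and Tcf24 and Prg4 spread the widest.

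Relatives of the 10 genes, by family or known partner, were read in the same genotype contrast. They were listed by family or partner and not by that contrast, but with earlier results of these data known. The list held 76 genes, of which 68 were in the table and 39 were tested. At stage 1 limma called none of the 39 higher and none lower, where 0.594% of all tested genes were called higher and 0.460% lower. At stage 2 it called 0 higher and 3 lower, where 2.36% of genes were called higher and 3.22% lower. The median difference of the 39 was -0.06 at each stage (log2), against -0.02 and 0.01 over all tested genes.

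Sytl1, a Rab27 effector like Exph5, fell by 0.84 ± 0.13 (limma adjusted p = 0.0105) at stage 2. Nfatc3, one of the NFAT factors, fell by 0.61 ± 0.10 (adjusted p = 0.0142), and the GTPase gene Rac2 fell by 0.45 ± 0.10 (adjusted p = 0.0497). The Rac2 call was lost under several alternatives, with adjusted p up to 0.154. Outside the Rab27 effectors, the tested members of the closest families were not called. Mlph and Myrip, listed with the Rab27 effectors, did not pass the filter and were not tested. Garem2 differed by -0.06 at both stages, Itm2b by -0.03 and -0.23, Homer1 by -0.15 and 0.18, the Chl1 relative L1cam by -0.45 and -0.33, and the Arhgap24 relative Arhgap25 by 0.05 and 0.34. Of the E and Id proteins 4 of 6 were tested and none was called, with Id2 at -0.70 at stage 2 (limma adjusted p = 0.0583, and as low as 0.0112 over the alternatives). The fibrillin and elastic fibre list had 6 of 12 tested and none called, and Cd44, a receptor for Prg4 and the marker on which the cells were sorted, was at -0.82 at stage 2 (limma adjusted p = 0.241).

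**Figure D5:**
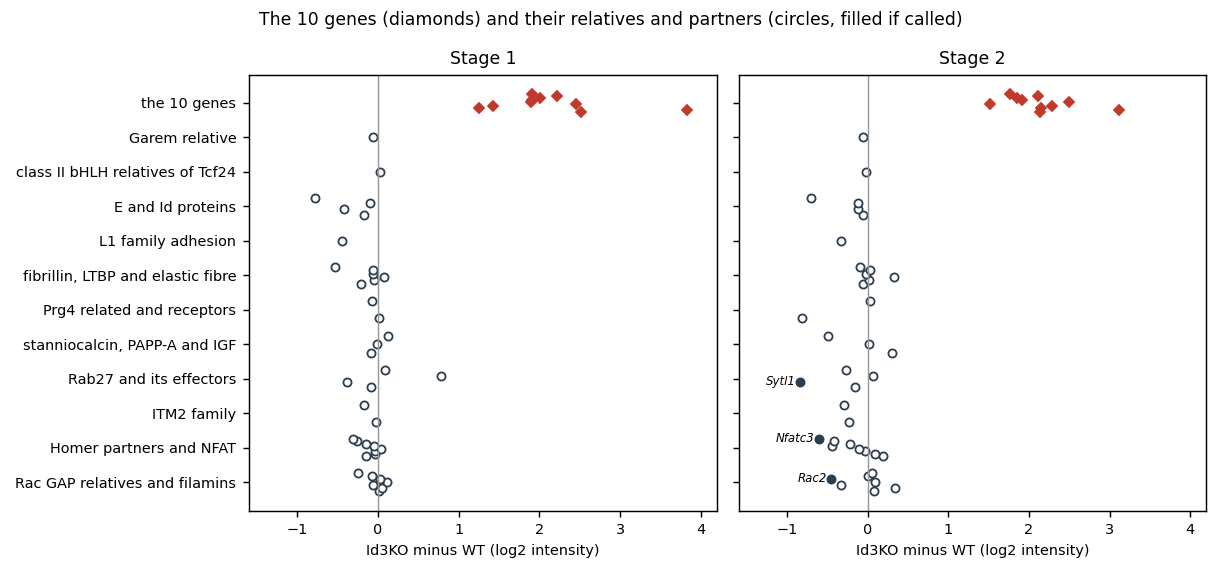
Id3KO minus WT difference (log2) at each stage for the tested relatives in each list, with the brightest probe sets of the 10 genes for comparison. The 10 genes lie between 1.25 and 3.83, and filled points among the relatives mark Sytl1, Nfatc3 and Rac2, the 3 called at stage 2.

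The nearest tested gene on each side of each member, 20 in all, was read as well, a choice made after values were known. None was called at stage 1. At stage 2 Slc12a2 beside Fbn2 was called higher at 0.62 ± 0.12 (limma adjusted p = 0.0223), while Isoc1 on the other side of Fbn2 was lower at -0.55 ± 0.09 (limma adjusted p = 0.0129) and Mapk10 beside Arhgap24 was lower at -0.89 ± 0.15 (limma adjusted p = 0.0134). The 3 calls were 1 higher and 2 lower of 20, or 5% and 10%, where 2.36% of all tested genes were called higher and 3.22% lower.

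Markers of other cell types were read beside these values. Of the 8 fibroblast and mesenchymal genes, Col1a1, Col1a2, Col3a1, Dcn, Lum and Pdgfra were below the level on all 10 arrays, only Fn1 was tested, and none was called. Their summed intensity was 372 to 386 in Id3KO cells and 377 on both WT arrays at stage 1, and 381 to 382 in Id3KO and 378 to 385 in WT cells at stage 2. The sums overlapped between genotypes. The endothelial (2 of 6 tested), thymic epithelial (5 of 6), B cell (3 of 6) and myeloid (3 of 7) lists also had no member called at either stage. Neither did the double-positive thymocyte (1 of 7 tested) and erythroid (1 of 6) lists. Of all tested genes, 0.594% were called higher and 0.460% lower at stage 1, and 2.36% and 3.22% at stage 2. With so few genes tested, nothing is read from the absence of calls. The gamma delta T cell list had 2 of 6 genes in the table, Cd163l1 and Sox13, and none was called. Their sums were 524 to 1688 in Id3KO and 1592 to 1847 in WT cells at stage 1. At stage 2 they were 453 to 1231 in Id3KO and 1781 to 2059 in WT cells. Most of each sum was Cd163l1, which read 366 and 1547 on the 2 Id3KO stage 1 arrays. Sox13 averaged 150 in Id3KO and 207 in WT cells at stage 1, and 148 in Id3KO and 135 in WT cells at stage 2. Of the sort markers, Cd24a differed by -0.29 at stage 1 and -0.09 at stage 2 (log2) and was not called. Cd44 was not called either, and averaged 454.7 in Id3KO and 769 in WT cells at stage 2. Cd1d1, read beside them, encodes the CD1d on which iNKT cells recognise lipids, and the cells were not sorted on it. It was called lower at stage 2 (-0.78, limma adjusted p = 0.0436). The part of CD44 level or of the gamma delta sums in the values of the 10 genes was not tested.

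Each brightest probe set correlated with the mean profile of the 10 genes over the 10 arrays at Pearson r between 0.851 (Homer2) and 0.984 (Garem1). Since each gene is part of that mean and all were chosen for the same genotype difference, these r values follow from the choice. The other genes whose arrays followed that mean most closely were Acly at r = 0.987, Cenpv at 0.985, Oxct1 at 0.983, Wwc1 at 0.981 and Klhdc2 at 0.980, given as a description over 10 arrays that share their genotype groups. Acly, the citrate lyase that makes cytosolic acetyl-CoA, averaged 4356 in Id3KO and 2376 in WT cells at stage 1, and 4194 in Id3KO and 2348 in WT cells at stage 2. Oxct1, a ketone body enzyme, averaged 1848 in Id3KO and 1161 in WT cells at stage 1, and 1725 in Id3KO and 1036 in WT cells at stage 2. On the log2 scale the differences at stage 1 and stage 2 were 0.88 and 0.84 for Acly, 1.36 and 1.41 for Cenpv, 0.67 and 0.73 for Oxct1, 1.29 and 1.42 for Wwc1, and 0.78 and 1.05 for Klhdc2.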

How the data were processed

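RNA from sorted thymic iNKT cells was measured on 10 arrays. The authors deposited 1 table of linear intensity values, normalised by RMA per the submitters' processing notes; its version and the genome build are not given in the sources used here. Array number limits the precision. Log2 of the deposited intensity was taken here. Probe sets were named through the platform annotation, with 34945 of 45037 given 1 gene. Probe sets above the table's median on at least 2 arrays were tested with limma 3.58.1 in R 4.3.3, with 1 mean per group, eBayes and Benjamini-Hochberg adjustment over 25061 probe sets; 6 residual degrees of freedom were left. Relatives and markers used the brightest probe set per gene. A fold written "at least" sets every low WT array to the table's median. All probe sets of the 10 genes, called relatives with up to 3 others per list, and the 5 genes of most similar profile are named; neighbours were added later. The 10 genes and all lists were chosen with earlier results of these data known. Replicate numbers recur across groups, but only 2 of 13 same-numbered pairs of arrays deviated together with r over 0.1 (range -0.31 to 0.13), so they were not treated as pairs. Most of these pairs cross genotypes, and the arrays of a group of 2 deviate as mirror images. Whether both stages were sorted from the same mice therefore cannot be settled by these r values. Between stages of 1 genotype they were 0.05 and 0.12 in WT and -0.19 and -0.04 in Id3KO cells. No scan batch was used here. Promoter letters were read with Python 3.11.15. The limma script was tested on simulated data. Alternatives covered the filter, normalisation, variance model, array weights, block, arrays fitted, probe set summary and single arrays left out.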

Additional observations from a re-analysis of the deposited data

How the results depend on the processing

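The number of probe sets called between stages in WT cells, 4 as reported, was 7 with the stricter filter, 8 after quantile normalisation, 9 with an intensity trend and robust prior, 42 with array weights, 8 with 1 probe set per gene and 2 with only the arrays compared. Array weights also called 1 member probe set, that of Homer2, between stages in WT cells. With the replicate number as a replicate block the WT stage count was 0 and the stage 1 genotype count was 99 in place of 201; the block moved no other count of calls by over 1.5 times. The genotype counts with only the arrays compared were 28 at stage 1 and 636 at stage 2, in place of 1055. Relatives called at stage 2, 3 as reported, were 5 with the trend and robust prior, 5 with array weights and 6 with 1 probe set per gene, where fewer tests are adjusted for. Id2 became the 1 relative called at stage 1 when the replicate numbers of the Id3KO stage 1 arrays were crossed, an alternative chosen after seeing the data. The median member difference taken over the mean of all probe sets of each gene was 1.61 at stage 1 and 1.42 at stage 2. That mean takes in the lesser probe sets. Some of these were dim, and others, such as Itm2a 1451047_at and Arhgap24 1430712_at, lay above the level on all arrays. Leaving out single arrays gave WT stage counts of 0 to 11, stage 1 genotype counts of 15 to 234, stage 2 genotype counts of 504 to 883 and 0 to 1 relatives called at stage 1. The stage 1 count of 15 was without WT stage 1 replicate 1, 33 without WT stage 1 replicate 2, 65 and 76 without Id3KO stage 1 replicate 1 or 2, and 123 and 133 without WT stage 2 replicate 2 or 3. The stage 2 count was 504 without WT stage 2 replicate 3, 581 without WT stage 2 replicate 2 and 650 without Id3KO stage 2 replicate 2. The WT stage count was 0 without either WT stage 1 array, 11 without WT stage 2 replicate 1, 2 without either Id3KO stage 1 array and 7 without Id3KO stage 2 replicate 2; Sytl2 was the relative called at stage 1, without Id3KO stage 2 replicate 1. A lone array left in a group was assumed to vary like the others. No called difference turned its direction under these settings. Of the stage differences, none of them called as reported, the sign turned under at least 1 setting in WT cells for Garem1 (-0.09 to 0.04 on the log2 scale), Stc2 (-0.24 to 0.03), Exph5 (-0.69 to 0.12), Arhgap24 (-0.34 to 0.07) and Tcf24 (-0.18 to just above 0), and in Id3KO cells for Fbn2 (-0.06 to 0.26). Where a count moved the cause was not tested. Values near the table's median have no measured lower end, so low WT levels are bounds.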
